A study of Mus musculus with 9 samples.

Results

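Meiotic division entry genes were examined in testes of mice with and without RFX2, a transcription factor of germ cells that binds the X-box motif. The 9 genes were chosen by symbol among the 23074 genes of the count table and are the cyclins Ccna1, Ccnb1, Ccnb2 and Ccnb3, the kinases Cdk1, Plk1 and Aurkc, the phosphatase Cdc25c and the chaperone Hspa2. All 9 passed the filter on low counts and were among the 15613 genes tested. RNA-seq was performed on whole decapsulated testes of 5 wild type mice and 4 Rfx2-/- mice, each library from its own animal, at postnatal days 29 to 30. Both groups had a mixed C57BL/6, 129/Sv and FVB/N background. In Rfx2-/- mice exon 7 of Rfx2, which encodes much of the DNA binding domain, had been removed from the whole body with a ubiquitously expressed Cre, and according to the methods the mixed background line kept its neomycin cassette. The comparison asked whether mRNAs for entry into the meiotic divisions differ when RFX2 is absent.

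Spermatocytes leave their long prophase when cyclin-dependent kinase 1 (CDK1), bound to an A-type or a B-type cyclin, becomes active. Its activity is opposed by phosphates placed by WEE1 and PKMYT1 and released by CDC25 phosphatases, while Polo-like and Aurora kinases prepare the spindle and chromosomes and the anaphase promoting complex later destroys the cyclins. In the male germ line cyclin A1 and the heat shock protein HSPA2, which assists assembly of CDK1 with cyclin B1, are each needed to complete the G2 to M transition of meiosis I.

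Promoters of Ccnb1, Ccnb2 and Cdk1 are shown because they hold more than 1 match to elements known from cell cycle genes of late G2, and because Ccnb2 is the only member on the study's list of genes with an RFX2 promoter peak, which comes from a separate chromatin immunoprecipitation of dissociated germ cells at P21. The sequences are from RefSeq (GRCm38.p6), run 5′ to 3′ on the minus strand of the genome, start 250 bases upstream of the transcription start and end before any annotated exon of the gene. Capitals mark CCAAT boxes, the CHR element TTTGAA, the X-box core GTTGC and the CRE core TGACG, on either strand. The windows are chr9:70421555-70421804 for Ccnb2, chr10:69352939-69353162 for Cdk1 and chr13:100786571-100786736 for Ccnb1.
Ccnb2: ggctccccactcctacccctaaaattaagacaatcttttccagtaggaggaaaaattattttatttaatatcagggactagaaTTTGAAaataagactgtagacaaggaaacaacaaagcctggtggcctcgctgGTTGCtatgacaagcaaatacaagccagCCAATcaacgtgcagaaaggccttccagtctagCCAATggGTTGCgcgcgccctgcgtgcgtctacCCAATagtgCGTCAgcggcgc
Cdk1: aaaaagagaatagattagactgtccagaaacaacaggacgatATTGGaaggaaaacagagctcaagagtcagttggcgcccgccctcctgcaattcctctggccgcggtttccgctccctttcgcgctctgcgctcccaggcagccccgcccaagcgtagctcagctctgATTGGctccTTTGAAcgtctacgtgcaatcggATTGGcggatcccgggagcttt
Ccnb1: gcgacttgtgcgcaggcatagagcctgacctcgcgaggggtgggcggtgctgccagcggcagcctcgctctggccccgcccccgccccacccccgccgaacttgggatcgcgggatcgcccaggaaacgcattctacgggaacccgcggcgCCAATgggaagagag

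The table of promoters held 8 of the 9 members, and all counts here are over the full 250 bases upstream of the start. A CCAAT box was present in 6 of the 8 promoters, against 33.8% of all 32851 promoters. At least 3 stood in those of Ccnb2 and Cdk1, against 2.79% of all, and Ccnb1 had a pair, at 99 and 67 bases upstream. The promoter of Ccnb3 held no match to any of the 4 motifs. The CCAAT boxes of Ccnb2 began 87, 54 and 21 bases upstream and those of Cdk1 208, 80 and 48 bases upstream. TTTGAA was found in 2 of the 8 members, in Ccnb2 at 167 bases and in Cdk1 at 71 and 15 bases upstream, compared with 16% of all promoters. The X-box core also occurred in 2 of the 8, Ccnb2 (115 and 47 bases) and Plk1 (178 and 7 bases), against 29.9% of all promoters, and the CRE core in Ccnb2 and Hspa2, against 17.8%. The CHR of Cdk1 at 15 bases and the CCAAT box of Ccnb1 at 67 bases lie past the first annotated exon base of the gene, in stretches that are not printed. The CCAAT box of Ccna1 (107 bases) and the CCAAT box and CRE core of Hspa2 (29 and 139 bases) also lie within the annotated gene. None of these matches overlapped another. A match describes letters in the window and not a bound site.

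The libraries held 13574764 to 15193330 counts, except Rfx2-/- replicate 1 with 28800855. Rfx2 itself was at 470.9 to 623.8 CPM (counts scaled to the library total and TMM factor) in wild type testes and at 199.2, 61.5, 151.1 and 172.7 CPM in Rfx2-/- replicates 1 to 4, without overlap, with reads over all exons counted and exon 7 alone deleted. None of the markers listed for germ cells, Sertoli, Leydig, peritubular or endothelial cells or macrophages was at 0 throughout, and 0 of them were called. Median log2 fold changes were 0.12 for spermatogonia, 0.05 for Sertoli, 0.19 for Leydig, -0.01 for peritubular and -0.21 for endothelial cells and 0.42 for macrophages. The biological coefficient of variation was 0.134 among wild type and 0.299 among Rfx2-/- libraries, and 0.179 without Rfx2-/- replicate 2. In that library genes with under 2 kb of exons stood at a median of 0.60 and genes over 8 kb at -0.90 relative to the other knockout libraries (log2). It was the highest or lowest knockout library for 6 of the 9 members. Any of 4 libraries is often at an end and the share over all genes was not computed, so this count does not set the library apart.

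Of the 9 members 0 were called changed at the limits of an adjusted p of 0.01 and a 2-fold change, where 3.68% of all tested genes were called lower, 0.826% higher and 4.51% either way. DESeq2 called 0 members as well, and at an unadjusted p under 0.05 in edgeR there were 2, Cdc25c and Ccnb3, where 27.6% of all tested genes passed that limit. Cdc25c alone passed the p limit, with a change just short of 2-fold, and it alone had no overlap between genotypes, a separation seen in 15.9% of all tested genes (9.7% lower and 6.16% higher in Rfx2-/-). The median log2 fold change was -0.09 over the 9 members and 0.03 over all genes. For 7 members the 95% interval of the log2 fold change lay within a 2-fold change in either direction. Cdc25c and Aurkc were the exceptions.

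**Figure D1:**
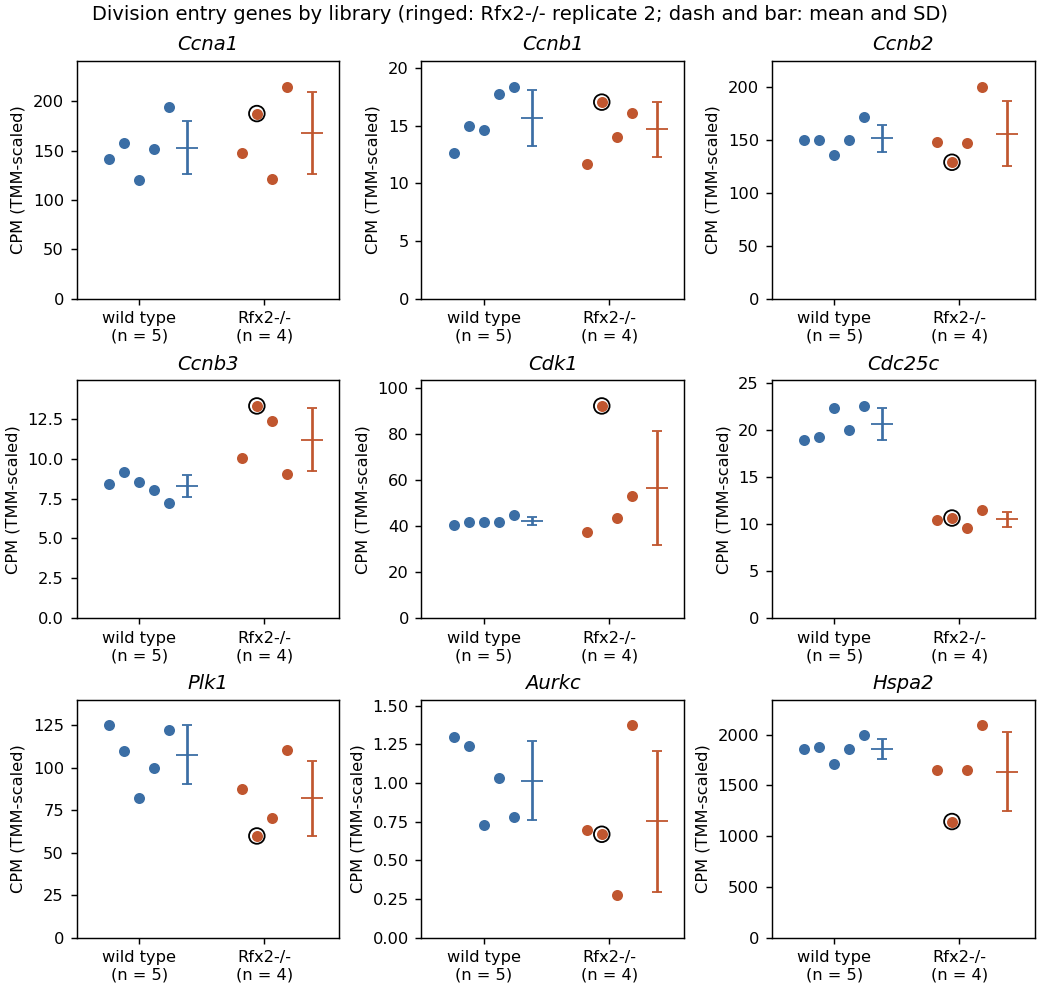
Level of each division entry gene (CPM, TMM-scaled, linear axis from 0) in every wild type and Rfx2-/- library, with the mean and SD beside the points and a ring on Rfx2-/- replicate 2. Only Cdc25c separates the genotypes, with 18.9 to 22.5 CPM in wild type testes and 9.54 to 11.4 CPM in knockout testes, and the ringed library is apart for Cdk1 and Hspa2.

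Cdc25c encodes 1 of the CDC25 phosphatases, a family that removes inhibitory phosphates from CDK1 (ENSMUSG00000044201, GRCm38 chromosome 18, 34732993 to 34751533, minus strand). Its level was 18.9, 19.3, 22.3, 19.98 and 22.5 CPM in wild type replicates 1 to 5 and 10.4, 10.6, 9.54 and 11.4 CPM in Rfx2-/- replicates 1 to 4. Every knockout library was below every wild type library, and both groups were tight, with coefficients of variation of 8.27% and 7.45%. The means were 20.6 ± 1.70 CPM (SD, n = 5) and 10.5 ± 0.78 CPM (SD, n = 4), so that Rfx2-/- testes held 51.1% of the wild type level. The log2 fold change was -0.97 (SE 0.13, 95% interval -1.26 to -0.68), with an edgeR adjusted p of 4.56e-04. An adjusted p at or under 0.05 with a lower level was found for 7.31% of all genes. Without Rfx2-/- replicate 2 the log2 fold change was -0.97 (edgeR adjusted p 1.03e-04). With the length trend between libraries removed the value was -1.03 and the gene was called. No other annotated transcript shared a stretch of 50 bases with Cdc25c, and its exons overlapped no other gene, although its span overlaps Gm3550.

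Since whole testes were sequenced, fewer cells of a type and less RNA per cell cannot be told apart. The study reports that spermatids of these mutants stop before elongation, as seen at this age, while spermatocytes are present and undergo meiosis. Cell composition thus differs between the genotypes. Markers of elongating spermatids had log2 fold changes below 0 in 12 of 12 cases, 5 of them at an adjusted p at or under 0.05 and 0 called, and their summed level was 12468 to 24348 CPM in wild type testes and 10872 to 14246 CPM in knockout testes. Wild type replicate 3 had the lowest of these wild type sums, 12468 CPM, inside the knockout range, and 22.3 CPM of Cdc25c. That library also had the lowest round spermatid sum (964.6 CPM) and the highest Sertoli sum (1700 CPM) among wild type libraries. It is 1 library, and the relation of Cdc25c to elongating spermatid markers was not tested. Round spermatid markers summed to 965 to 1430 CPM in wild type testes and 1273 to 1707 CPM in knockout testes, with 6 of 10 above 0 and 1 higher at an adjusted p at or under 0.05. Their part in the Cdc25c value was not tested further. Relative to the mean of the 12 meiotic prophase markers Cdc25c had a log2 ratio of -2.50 ± 0.20 in wild type (SD, n = 5) and -3.86 ± 0.35 in Rfx2-/- testes (SD, n = 4). The genotypes did not overlap, where 23.5% of all genes tested were lower without overlap in this ratio. It reuses the Cdc25c values over markers whose sums were higher in every knockout library, so it adds no separate support.

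The other CDC25 phosphatases were compared per length of exon, as CPM per kilobase of merged exons (RPKM). Cdc25a was at 27.2 ± 2.96 RPKM in wild type and 27.2 ± 3.85 RPKM in Rfx2-/- testes (log2 fold change -0.00, SE 0.14). Cdc25b was low, at 1.33 ± 0.18 and 1.47 ± 0.36 RPKM. Cdc25c accordingly made up 27.1% of the summed CDC25 level in wild type (25.1% to 31.7% over libraries) and 16.0% in Rfx2-/- testes (15.0% to 17.4%). Of the kinases that oppose CDC25, Wee1 missed the limit (log2 fold change -0.47, SE 0.17, edgeR adjusted p 0.0982), and Pkmyt1 was at -0.10 (SE 0.15). Wee1 was lower without overlap between genotypes, as were 9.7% of all tested genes.

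**Figure D2:**
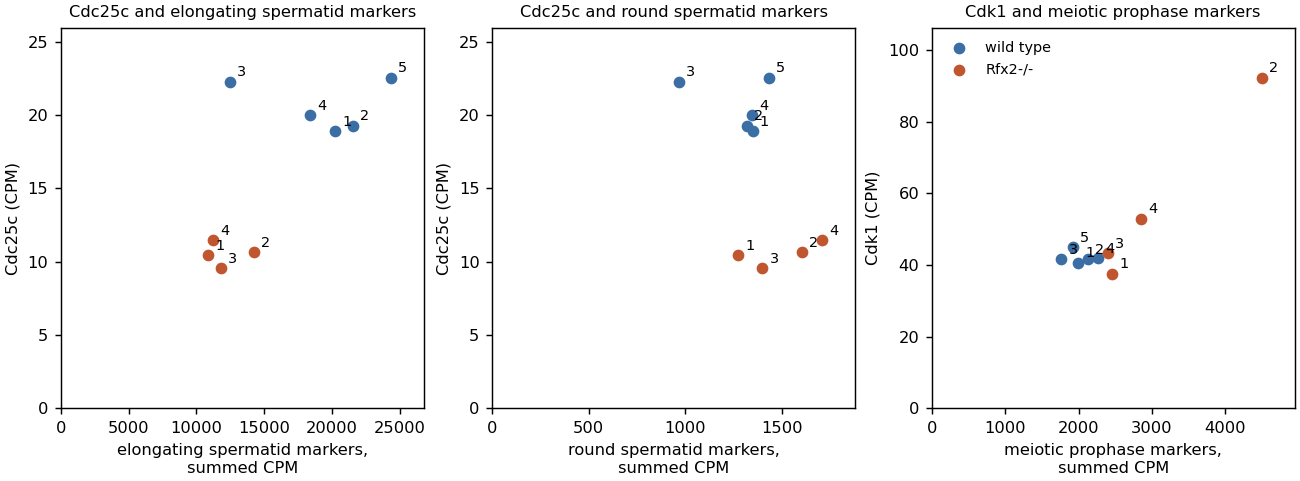
Level of Cdc25c against the summed CPM of elongating and of round spermatid markers, and of Cdk1 against that of meiotic prophase markers, 1 point per library numbered by replicate and coloured by genotype. Wild type replicate 3 is the lowest wild type library in both the elongating (12468 CPM) and the round (964.6 CPM) spermatid marker sum. How Cdc25c relates to these markers was not tested. Rfx2-/- replicate 2 is highest in both Cdk1 (92.2 CPM) and prophase markers (4494 CPM).

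The A-type and B-type cyclins are the activating partners of the kinase. Ccna1, cyclin A1 of the male germ line (chromosome 3, 55045469 to 55055501), had 142.0, 158, 119.9, 151.2 and 194 CPM in the wild type replicates and 148, 187, 121.1 and 215 CPM in the knockout replicates. The groups overlapped over most of their range, and the log2 fold change was 0.13 (SE 0.19, 95% interval -0.28 to 0.55). It carried 95.8% of the A-type cyclin RPKM in wild type and 95.5% in Rfx2-/- testes, the remainder being Ccna2, the cyclin A of dividing somatic and germ cells. Antisense gene 4931419H13Rik covers 10.1% of the Ccna1 exons, and whether strand was used in counting is not stated.

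Ccnb2, cyclin B2 (chromosome 9, 70407692 to 70421547), had 150.0, 150.1, 135.6, 150.4 and 172 CPM in wild type testes and 147.9, 129.0, 146.9 and 200.5 CPM in knockout testes. Both the lowest and the highest value came from knockout libraries. The log2 fold change was 0.04 (SE 0.15, 95% interval -0.29 to 0.37), so this gene with an RFX2 promoter peak differed by less than the spread between replicates. Ccnb2 made up 92.4% ± 0.66 of the B-type cyclin RPKM in wild type (SD, n = 5) and 92.2% ± 1.92 in Rfx2-/- testes (SD, n = 4).

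Ccnb1, cyclin B1 (chromosome 13, 100778650 to 100786570), was measured at 15.7 ± 2.39 CPM in wild type testes and 14.7 ± 2.39 CPM in knockout testes, with a log2 fold change of -0.09 (SE 0.17). Its libraries ranged from 12.6 to 18.4 CPM and from 11.7 to 17.1 CPM. Of its transcript sequence 40.6% occurs in other annotated genes, among them the copy Ccnb1-ps, and reads with several positions were discarded, which lowers its level when set beside Ccnb2, a gene that shares none.

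Ccnb3, the X-linked B-type cyclin of meiotic prophase (X, 6979652 to 7041619), was low. It had 8.41, 9.14, 8.51, 8.04 and 7.25 CPM in the wild type replicates, or 93 to 128 counts, and 10.1, 13.3, 12.3 and 9.03 CPM in the knockout replicates. The knockout libraries exceeded the wild type ones but for Rfx2-/- replicate 4, which lay just below the highest wild type library. The log2 fold change of 0.43 (SE 0.16, 95% interval 0.08 to 0.78) had an unadjusted p of 0.0192 and an edgeR adjusted p of 0.106, which did not pass. Relative to the meiotic prophase markers the difference was 0.00 and relative to the late spermatocyte markers 0.49 (log2). The prophase markers had a median log2 fold change of 0.50, with 11 of 12 above 0, 2 higher at an adjusted p at or under 0.05 and 0 called. Their summed level was 1767 to 2267 CPM in wild type testes and 2399 to 4494 CPM in knockout testes. Their part in the Ccnb3 value was not tested further.

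Cdk1, the kinase itself (chromosome 10, 69335146 to 69352938), varied least among the 9 members in wild type and, after Aurkc, most in Rfx2-/- testes. The wild type replicates had 40.6, 41.7, 41.6, 41.8 and 44.9 CPM and the knockout replicates 37.6, 92.2, 43.3 and 52.9 CPM. The coefficient of variation was 3.88% in wild type and 43.6% in Rfx2-/- testes, and Rfx2-/- replicate 2 lay far above the remaining libraries. With all libraries the log2 fold change was 0.42 (SE 0.22, edgeR adjusted p 0.24). Without Rfx2-/- replicate 2 it was 0.08 (SE 0.12, 95% interval -0.17 to 0.33, edgeR adjusted p 0.699). The same library had the highest prophase marker sum, 4494 CPM where replicates 1, 3 and 4 reached 2399 to 2855 CPM. With the length trend between libraries removed the log2 fold change of Cdk1 was 0.56 (edgeR adjusted p 0.171). That value depends on the exon length used, 4533 bases merged over isoforms, which may not be the length expressed in testis. The part of the marker level in the Cdk1 value was not tested.

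Plk1, a Polo-like kinase of spindle assembly and chromosome segregation (chromosome 7, 122159439 to 122169873), had 125.02, 109.7, 82.4, 99.8 and 122.2 CPM in the wild type replicates and 87.5, 59.8, 70.3 and 110.4 CPM in the knockout replicates. The groups overlapped through wild type replicate 3 and Rfx2-/- replicate 4. The log2 fold change was -0.39 (SE 0.19, 95% interval -0.82 to 0.03, edgeR adjusted p 0.209) and -0.27 without Rfx2-/- replicate 2 (edgeR adjusted p 0.308). Stretches found in other genes, among them Plk-ps1, made up 10.7% of the Plk1 transcript sequence. It contributed 57.0% of the summed RPKM of the Polo-like kinases Plk1 to Plk4 in wild type and 49.4% in Rfx2-/- testes, with ranges of 51.4% to 62.5% and 42.6% to 56.7%.

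Aurkc, the germ cell Aurora kinase of the chromosomal passenger complex (chromosome 7, 6995300 to 7003091), had 10 to 17 counts per wild type library and 21, 10, 4 and 21 counts in the knockout libraries. Of its transcript sequence 54.8% recurs in other annotated genes, among them Gm12463, and reads placed there as well were discarded. The level was 1.02 ± 0.26 CPM in wild type testes and 0.753 ± 0.46 CPM in knockout testes, with a log2 fold change of -0.43 (SE 0.39, 95% interval -1.27 to 0.41). That interval includes a 2-fold reduction as well as no change, and the knockout libraries had a coefficient of variation of 60.7%. Among the Aurora kinases Aurka made up 90.1% and 90.0% of the summed RPKM in the respective genotypes, and Aurkb 9.29% and 9.40%.

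Hspa2, the testis chaperone of the HSP70 family (chromosome 12, 76404176 to 76406938), was the most abundant member. It had 1857, 1874, 1710.2, 1854 and 1999.9 CPM in wild type testes and 1654, 1144, 1649.6 and 2092 CPM in knockout testes. The knockout libraries were below all wild type libraries except Rfx2-/- replicate 4, which was above them. The log2 fold change was -0.19 (SE 0.17, 95% interval -0.57 to 0.19), and -0.05 (SE 0.12, 95% interval -0.31 to 0.21) without Rfx2-/- replicate 2. No sequence of 50 bases was shared with another annotated transcript.

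**Figure D3:**
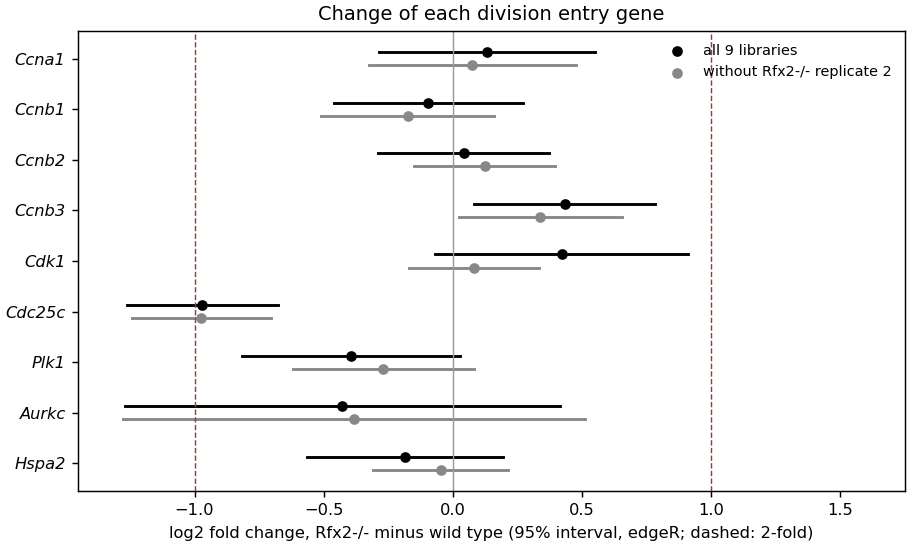
Log2 fold change of each gene, Rfx2-/- minus wild type, with its 95% interval from edgeR, using all 9 libraries (black) and without Rfx2-/- replicate 2 (grey). Cdc25c stands at -0.97 in both, whereas Cdk1 moves from 0.42 to 0.08 and Hspa2 from -0.19 to -0.05 when that library is left out.

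Levels of the members were set in order per length of protein coding exons. In wild type testes Hspa2 led with 703 ± 38.9 RPKM, followed by Ccnb2 (99.0 ± 8.40 RPKM), Ccna1 (83.4 ± 14.8 RPKM) and Plk1 (49.0 ± 7.92 RPKM). Lower levels were found for Cdc25c (10.6 ± 0.88 RPKM), Cdk1 (9.29 ± 0.36 RPKM), Ccnb1 (6.30 ± 0.96 RPKM), Ccnb3 (1.81 ± 0.15 RPKM) and Aurkc (0.667 ± 0.17 RPKM), each mean over 5 libraries. The libraries of Ccnb2 and Ccna1 overlapped, from 88.6 to 112.1 RPKM and from 65.3 to 105.8 RPKM, as did those of Cdc25c and Cdk1. In Rfx2-/- testes the order was kept except around Cdc25c, which at 5.40 ± 0.40 RPKM (n = 4) stood below Cdk1 (12.5 ± 5.43 RPKM) and Ccnb1 (5.91 ± 0.96 RPKM). The knockout libraries of Cdc25c (4.91 to 5.89 RPKM) and Cdk1 (8.29 to 20.3 RPKM) no longer overlapped, while those of Cdc25c and Ccnb1 did. The exon length of Cdk1, 4533 bases merged over its isoforms, bears on its place in this order. Shared sequence, 40.6% for Ccnb1 and 54.8% for Aurkc, also does, since reads with several positions were discarded while full exon length was used. The place of Ccnb1 beside Cdc25c and Cdk1 is therefore not settled in either genotype.

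The remaining genes of the pathway were read from the same fit. Of 88 listed genes 87 were tested, and 0 were called, where all tested genes gave 3.68% lower and 0.826% higher. At an adjusted p at or under 0.05, which 7.31% of all genes passed with a lower and 3.48% with a higher level, 1 was lower and 1 was higher, and 8 had no overlap between genotypes, where 15.9% of all genes had none. The lower one was Ppp2r2b, a regulatory subunit of the PP2A phosphatase, from 49.7 ± 13.2 to 27.4 ± 7.25 CPM (log2 fold change -0.86, SE 0.24, edgeR adjusted p 0.0402). Its libraries overlapped between genotypes. The higher one was Fbxo5 (EMI1), an inhibitor of the anaphase promoting complex, from 3.18 ± 0.79 to 5.66 ± 0.99 CPM (0.82, SE 0.22, edgeR adjusted p 0.0327). List medians were 0.24 for partners and 0.01 for brakes of cyclin-dependent kinases (CDK), 2 lists not confined to CDK1. Greatwall and PP2A genes had -0.01, Polo and Aurora partners -0.18, the anaphase promoting complex -0.01 and the spindle checkpoint 0.14. Regulators of G2/M transcription had -0.03 and other spermatocyte division factors -0.08.

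The remaining lowest and highest genes of these lists did not pass the test. CDK partners ran from Ccne1 at -0.28 to Cks1b at 0.54 and CDK brakes from Wee1 at -0.47 to Chek1 at 0.40. Polo and Aurora partners ran from Plk2 at -0.57 to Plk3 at 0.64. The spindle checkpoint ran from Bub1b at -0.38 to Mad2l1 at 0.68, and the G2/M regulators from Mybl2 at -0.66 to Nfyb at 0.51. In the Greatwall list the highest was Ppp2ca (0.52), a catalytic subunit of PP2A. Espl1, the separase that cuts cohesin at anaphase, had the lowest value of the anaphase promoting complex list, -0.79 with an SE of 0.30. Eif4g3, a translation initiation factor required for spermatocyte division, averaged 829 ± 53.4 CPM across wild type libraries and 482 ± 207 CPM across knockout libraries (-0.78, SE 0.29, edgeR adjusted p 0.102). Meikin, the meiosis-specific kinetochore protein, had a value of 0.62. With all libraries the edgeR adjusted p of Espl1 was 0.117. The sizes of the Espl1 and Eif4g3 values, and also their wide SEs, rested partly on Rfx2-/- replicate 2. Without it Espl1 was at -0.50 (SE 0.10, edgeR adjusted p 0.0043) and Eif4g3 at -0.51 (SE 0.12, edgeR adjusted p 0.0103), and Ppp2r2b was called lower (-1.04, edgeR adjusted p 0.00918), where 4.01% of all genes were called lower in the same fit. At an adjusted p at or under 0.05 this fit gave 3 lower and 2 higher pathway genes, against 9.77% and 4.93% of all genes. The 2 higher ones were Fbxo5 (0.73, SE 0.22, edgeR adjusted p 0.0405) and Ppp2ca (0.32, SE 0.099, edgeR adjusted p 0.0477).

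**Figure D4:**
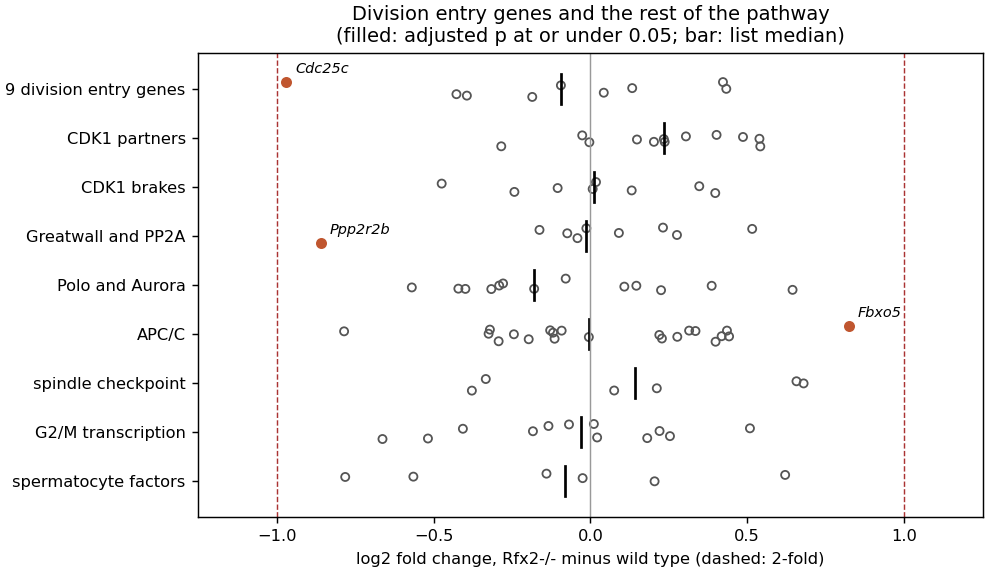
Log2 fold change, Rfx2-/- minus wild type, of the 9 division entry genes and of 87 other genes of the pathway by list, 1 point per gene, with the list median as a bar and genes at an adjusted p at or under 0.05 filled and named. All points lie within a 2-fold change, and Cdc25c (-0.97) is the lowest of them. The partner and brake lists, labelled CDK1 in the figure, also hold genes of other cyclin-dependent kinases.

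The level relative to spermatocyte markers depended on the markers used. Against the meiotic prophase markers the 9 members had a median difference of -0.50 (log2, Rfx2-/- minus wild type), where all genes tested had one of -0.40, and Cdc25c (-1.36), Plk1 (-0.82) and Hspa2 (-0.62) did not overlap between genotypes, nor did the prophase marker sums themselves. In this ratio 23.5% of all genes tested were lower without overlap and 0.788% higher. Against late spermatocyte markers, which had a median log2 fold change of -0.03, the median difference was -0.01, with Cdc25c at -0.88, Plk1 at -0.34 and Hspa2 at -0.14. Leaving out Rfx2-/- replicate 2, the median against prophase markers was -0.29.

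Likeness of pattern was described by Pearson's correlation of log2 CPM over the 9 libraries with 12901 genes of at least 50 mean counts. The points share libraries and, across genotypes, any genotype difference. The gene most like Cdc25c was Larp6 (r = 0.992), an RNA-binding protein gene that was itself called lower, at 9.41 ± 0.91 CPM in wild type testes and 1.398 ± 0.29 CPM in knockout testes. Cdk1 was most like Nedd8 (0.997), the gene of a ubiquitin-like protein, and Ccnb2 most like Ctnnbl1 (0.985). For Plk1 the gene was Ddx54 (0.987), for Hspa2 Fa2h (0.984), for Ccna1 Pgam2 (0.973) and for Ccnb3 2810006K23Rik (0.969). Lower values were reached for Aurkc with Trmt1 (0.941) and for Ccnb1 with Mtif3 (0.925). Among the members themselves Plk1 and Hspa2 correlated most over the 9 libraries (0.869), and at 0.840 within the 5 wild type libraries. Their lowest values both came from Rfx2-/- replicate 2. Within the wild type libraries the highest pair was Ccnb2 and Hspa2 (0.982), which stood at 0.765 over the 9 libraries. Ccnb3 had negative correlations with Plk1 (-0.863) and Cdc25c (-0.832), which were -0.308 and -0.600 within the wild type libraries.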

How the data were processed

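The authors deposited raw read counts per gene of whole testis RNA-seq. According to their methods and processing notes, TruSeq libraries were sequenced as single reads of 50 bases, mapped to GRCm38 (Ensembl release 70) with STAR 2.4, reads with several positions were discarded, and featureCounts 1.4.6 counted reads over merged exons of protein coding isoforms, leaving out reads over exons of different genes. Near-identical copies therefore lose reads, and the use of strand is not stated.

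Names, positions and exon lengths were taken from GENCODE M21, which held 96.6% of the gene IDs and 184 of 185 listed symbols. Genotypes were compared with edgeR 4.0.16 in R 4.3.3 (quasi-likelihood F test, TMM factors, filterByExpr, robust estimates, genotype as the single factor, Benjamini-Hochberg adjustment over all genes tested), with calls at an adjusted p of 0.01 and a 2-fold change. On simulated counts from 15391 genes the procedure recovered 96.9% of genes changed 4-fold and 99.0% of those changed 8-fold, with 3 false calls. Smaller changes, such as those of the members, and the length trend of Rfx2-/- replicate 2 were not simulated, so recovery of such changes is not known. Ratios to markers used log2(CPM + 0.25). Library pairs within a genotype differed by 4.32 chi-square units per gene or more, which is more than repeat sequencing of 1 library would give. That check cannot show separate animals. The study's methods count the libraries as biological replicates, so each was taken as 1 mouse. Replicate numbers, given in order of listing, pair no animals. No paired analysis was possible because the labels give no pairing. Intervals of fold changes are edgeR estimates from the replicates, and totals of counts limit the precision of low genes.

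The members and the lists were chosen with earlier results of these data known. All members were described, and of the pathway lists every gene past a limit and the lowest and highest gene of each. Espl1 and Eif4g3 without Rfx2-/- replicate 2 fall within that rule. Alternatives were RLE factors (median-of-ratios), total counts, no filter, DESeq2 1.42.0, removal of a per-library trend on exon length, an unadjusted p, other markers, and omission of each library.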

Additional observations from a re-analysis of the deposited data

Results flagged for a closer look

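Of 38 sets of library values tested for 1 library far from its group, 3 stood out, where chance gives about 1.9. Cdk1 was at 44.91 CPM in wild type replicate 5 and at 40.6 to 41.81 CPM in the other wild type libraries, a gap that is wide only against their tight spread. The round spermatid markers summed to 964.6 CPM in wild type replicate 3 and to 1319 to 1430 CPM in the other wild type libraries. The Sertoli cell markers summed to 1700 CPM in the same library and to 1376 to 1443 CPM in the others.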

How the results depend on the processing

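With RLE factors, total counts, no filter on low counts, DESeq2 and each library left out in turn, 0 members were called in either direction. With the length trend removed 1 was called lower, Cdc25c, whose log2 fold change of -1.03 was then past 2-fold. The log2 fold change of Cdc25c ran from -0.9998 to -0.89 when a library was left out, and its adjusted p over all alternatives from 1.89e-10 (DESeq2) to 0.00359. Among all genes the number called higher was 129, and 211 with DESeq2 and 262 with an unadjusted p. Leaving out a library gave 447 to 632 genes called lower and 92 to 175 called higher. Ccnb1 changed sign to 0.0436 with total counts, which moved the median of all genes from 0.03 to 0.16, and to 0.0364 without Rfx2-/- replicate 1, with a range of -0.17 to 0.04 when a library was left out. Ccnb2 changed sign to -0.0362 with the length trend removed and to -0.07 without Rfx2-/- replicate 4, with a range of -0.07 to 0.12. The causes were not tested. The ranges with a library left out were 0.03 to 0.30 for Ccna1, 0.34 to 0.55 for Ccnb3, 0.08 to 0.61 for Cdk1, -0.54 to -0.27 for Plk1, -0.30 to -0.05 for Hspa2 and -0.80 to -0.14 for Aurkc. Of the other pathway genes 0 to 1 were called lower, the 1 being Ppp2r2b without Rfx2-/- replicate 2. The median of the members relative to prophase markers was -0.50, ran from -0.58 to -0.29 with a library left out, the last without Rfx2-/- replicate 2, and was -0.0139 with late spermatocyte markers. Aurkc had 4 to 21 counts a library, and depth limits the precision of its level. Shared sequence limits the levels of Aurkc and Ccnb1.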
